A study of Mus musculus with 34 samples.

Results

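The gluconeogenesis genes were 9 genes of liver glucose production, taken by symbol from 14086 genes with normalized counts in mouse liver: Pcx, Pck1, Fbp1, G6pc, Slc37a4, Tat, Got1, Gpt and Ppargc1a. Of these, 8 had a mean normalized count of at least 10 over the 18 libraries and were tested among the 6592 genes that reached it. Ppargc1a did not, and is described by its values only. A second table of z-scores for 1659 selected genes held 4 of the 9, namely Pck1, Fbp1, G6pc and Tat.

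The series compared mouse livers carrying forms of beta-catenin, the Wnt signalling protein that also joins cadherins at cell contacts. Liver cancer was modelled by hydrodynamic injection, in which a large volume of plasmid solution is injected fast and enters part of the hepatocytes, and every sample was labelled as total RNA from frozen liver tumours, the wild type samples included. Normalized counts covered 2 wild type libraries, 3 that carried only the skip1 isoform of beta-catenin (skip1 alone) and 2 that carried only the skip2 isoform. There were also 5 libraries of skip1, 2 of skip2 and 4 of dN90 in the condition labelled induced (dN90 stands for the ΔN90 form of beta-catenin in the label). Z-scores also covered 4 subtype A and 9 subtype B libraries and 3 control libraries labelled sgActin and YAPS127A, a guide against actin with a mutant of the growth regulator YAP. The labels do not say what induced a sample, which animals the libraries came from, or their strain, sex or age. The source label decided between skip1 and skip2, since another label field repeats skip1 for the skip2 samples. Whether replicate libraries stem from different animals is not stated in the labels, and p-values cover only the spread between libraries, which may be technical.

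Gluconeogenesis makes glucose from lactate, glycerol and amino acids and lets the liver feed the blood between meals. It runs glycolysis backwards, with dedicated enzymes where glycolysis cannot be reversed: pyruvate carboxylase (Pcx) and phosphoenolpyruvate carboxykinase (Pck1) at the entry, fructose-1,6-bisphosphatase (Fbp1) in the middle, and glucose-6-phosphatase (G6pc) at the exit, supplied by the glucose-6-phosphate transporter Slc37a4. Aminotransferases (Tat, Got1, Gpt) pass amino acid carbon into the pathway, and glucagon, glucocorticoids and the coactivator PGC-1α (Ppargc1a) raise transcription of several of these genes in fasting, while insulin lowers it. In normal liver many of these genes are strongest in the periportal zone, the side of the lobule away from the Wnt-active central vein.

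Promoters are shown for Pck1, G6pc, Fbp1 and Tat, the 4 genes called lower in most of the comparisons of induced samples with their reference. RefSeq promoter windows on GRCm38.p6, the mm10 assembly, were found for 8 of the 9 genes, not for Gpt, and made 11 windows. The stretches are printed 5′ to 3′ on the strand of the gene and begin 250 bases before its start. They end before any annotated exon, and capitals mark matches to the searched motifs. Pck1 lies on chromosome 2 from 173153048 to 173159273 and its stretch is chr2:173152823-173153047 on the plus strand. G6pc lies on chromosome 11 from 101367561 to 101377903 and its stretch is chr11:101367466-101367560 on the plus strand. Fbp1 lies on chromosome 13 from 62864753 to 62888282 and its stretch is chr13:62888283-62888532 on the minus strand. Tat lies on chromosome 8 from 109990437 to 109999803 and its stretch is chr8:109990186-109990435 on the plus strand.
Pck1: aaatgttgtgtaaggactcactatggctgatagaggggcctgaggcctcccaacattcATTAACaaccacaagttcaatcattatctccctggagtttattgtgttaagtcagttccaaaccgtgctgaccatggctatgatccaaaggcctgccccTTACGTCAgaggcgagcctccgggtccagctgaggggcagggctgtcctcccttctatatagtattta
G6pc: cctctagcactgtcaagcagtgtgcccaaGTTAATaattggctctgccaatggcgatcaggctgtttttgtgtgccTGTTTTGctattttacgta
Fbp1: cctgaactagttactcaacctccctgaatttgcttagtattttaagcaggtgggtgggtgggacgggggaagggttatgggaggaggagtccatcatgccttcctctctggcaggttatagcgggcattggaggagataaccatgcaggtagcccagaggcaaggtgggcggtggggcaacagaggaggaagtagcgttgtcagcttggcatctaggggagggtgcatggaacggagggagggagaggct
Tat: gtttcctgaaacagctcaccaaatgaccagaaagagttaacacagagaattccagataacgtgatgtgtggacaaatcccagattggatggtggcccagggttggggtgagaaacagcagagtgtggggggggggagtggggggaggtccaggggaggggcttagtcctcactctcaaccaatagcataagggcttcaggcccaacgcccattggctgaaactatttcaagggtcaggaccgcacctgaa

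The motifs were searched on both strands of the 250 bases before the start, in 32851 windows of all genes. TTACGTCA, a variant of the cAMP response element, was found at positions -93 to -86 before Pck1 and in 0.447% of all windows. It contains the core TGACG on the other strand, which 17.8% of windows hold. GTTAAT, an HNF1 core, was found before Pck1 on the minus strand, at -192 to -187, and before G6pc at -221 to -216, against 6.43% of all windows. TGTTTTG, a FOX motif, was found before G6pc at -174 to -168, against 5.56% of windows. G6pc also had a TATAAA at -29 to -24, outside the printed stretch, a motif of 12.4% of windows. The full cAMP response element TGACGTCA (1.55% of windows), the FOX motif TGTTTAC (3.17%) and the glucocorticoid receptor core TGTTCT (16.1%) matched in none of the 11 windows, and no searched motif matched before Fbp1 or Tat. A match describes letters in this window and is not a measured site.

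Each library held an estimated 361772 to 933147 reads, few enough to make low genes imprecise. The skip2 induced libraries were the deepest, at 815420 and 933147. Depth thus differed together with group in comparisons with them. The summed normalized count of 10 hepatocyte markers ran from 69496 to 93402 in the 7 libraries without the induced condition and from 24187 to 64497 in the 11 induced libraries, with no marker at 0 in any group. Hepatocyte transcripts were thus present in every group. Alb weighed most in these sums, with means of 51886 with skip1 alone and 17375 in skip1 induced samples. Mean Trf went the other way in skip2, from 11321 alone to 14464 induced. Summed cholangiocyte markers ran from 14.6 to 45.6 without and from 170 to 812 with the induced condition. All 3 tested (Spp1, Bicc1 and Pkhd1) were called higher in each of the 3 comparisons of induced samples with their reference. Spp1 averaged 265 in skip1, 422 in skip2 and 267 in dN90 induced samples. Krt19, Krt7, Sox9 or Epcam were at 0 in a whole group only without the induced condition, but these genes were low in every group. Mean Krt19 was 1.24 in wild type, against 0.84 in skip1, 0.78 in skip2 and 1.32 in dN90 induced samples. Of the 10 hepatocyte markers, limma called 5 lower in skip1, 3 in skip2 and 4 in dN90 induced samples. Their differences lay below 0 for 100% in skip1 but for 70% in skip2 and in dN90 samples. Of 8 macrophage markers 5, 1 and 2 were called higher in the same order, and of 7 stellate and fibroblast markers 3 were called higher in each, with 1 lower in skip2 and in dN90 samples. Of 7 endothelial markers 1 was called, lower in dN90 samples. The part that such changes in cell content played in the results below was not tested. In these bulk samples fewer cells of a type and less RNA per cell cannot be told apart. Along the first principal component, which held 49.9% of the variance, skip1 induced replicates 1 and 2 stood apart at 4.81 and -7.48, between the other skip1 induced libraries (14.3 to 24.7) and the libraries without the induced condition (-45.0 to -36.2).

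G6pc, Fbp1 and Tat were called lower in all 3 comparisons of induced samples with their reference, and Pck1 was lower in all 3 and called in 2 of them. G6pc had the largest difference of the 8 genes in the skip2 and dN90 samples, and Tat in the skip1 samples. A gene was called at an adjusted p under 0.05 in limma (Benjamini-Hochberg over the 6592 genes), on the log2(normalized count + 1) scale, which understates changes of low genes. In skip1 induced against skip1 alone, 6 of the 8 genes were called lower (all but Pcx and Slc37a4), where 14.7% of all genes were called and 8.18% were called lower. In skip2 induced against skip2 alone, 3 of 8 were called lower (G6pc, Fbp1 and Tat), against 14.9% of all genes called and 8.42% lower. In dN90 induced against wild type, 4 of 8 were called lower (G6pc, Pck1, Fbp1 and Tat), against 22.7% called and 12% lower. None of the 8 was called higher. The lowest mean of the 8 was 59.7 (Got1). Of the 1679 genes with a mean of at least 50, 545 were called in skip1 (428 lower), 526 in skip2 (412 lower) and 656 in dN90 samples (439 lower). These are larger shares than among all genes tested. The median difference of the 8 was -1.40 in skip1, -1.26 in skip2 and -0.88 in dN90 samples, beside -0.02, -0.06 and 0.01 over all genes tested. Over the genes with a mean of at least 50 the median was -0.24, -0.35 and -0.19. Over the 10 hepatocyte markers it was -1.50, -1.03 and -1.43, so falls of this size were not particular to the 8 genes. Scaling the libraries to equal totals raised that median of all genes to 0.43, 0.52 and 0.47, and then 4, 1 and 3 of the 8 were called lower: Pck1 and Gpt were lost in skip1, Fbp1 and Tat in skip2 and Fbp1 in dN90 samples, while Pcx was called higher in skip2. Over all genes, equal totals gave 1643 called higher and 192 lower in skip1, 1474 and 226 in skip2 and 1824 and 384 in dN90 samples, against 432 and 539, 430 and 555, and 711 and 788 as deposited. Quantile normalization lost the same calls as equal totals in skip1 and skip2 and Tat in dN90 samples, and it also called Pcx higher in skip2. With depth as a covariate Fbp1 was no longer called in skip2 (-1.24, SE 0.45), nor Fbp1 (-1.07, SE 0.38) and Tat (-1.18, SE 0.48) in dN90 samples, and each standard error was larger than without it.

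**Figure D1:**
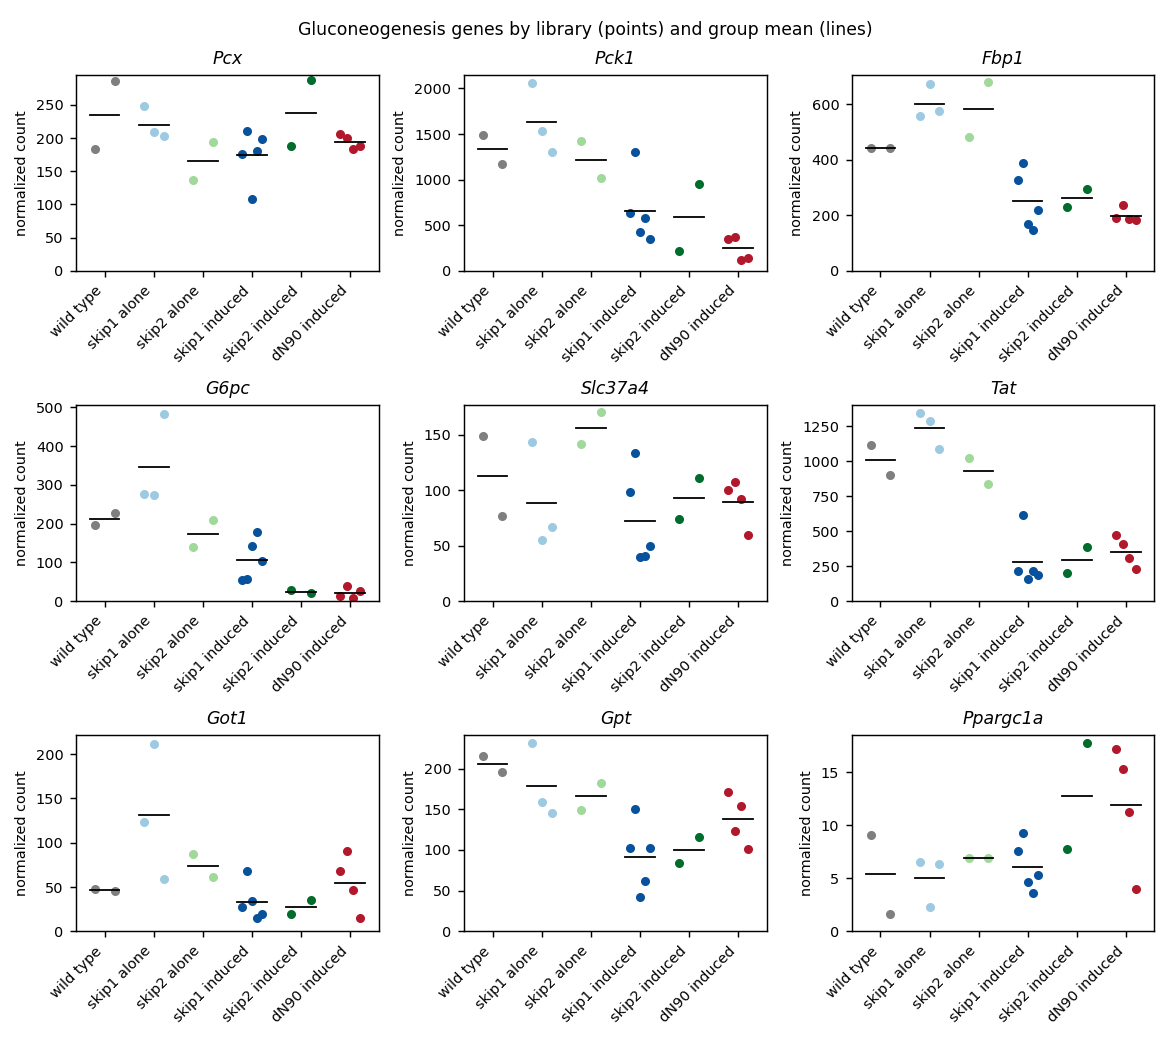
Normalized count (vertical axis, from 0) of each of the 9 genes in every library (points) and its group mean (lines), for the 6 groups with counts. Fbp1 and Tat are lower in all 11 induced libraries than in the 7 others, while G6pc is lowest in the skip2 and dN90 induced libraries.

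Pcx, the mitochondrial enzyme that makes oxaloacetate from pyruvate (chromosome 19, 4510472 to 4621752), did not separate the groups. Its normalized counts were 184 and 286 in wild type liver, 204 to 248 with skip1 alone, 137 and 194 with skip2 alone, 107 to 210 in skip1 induced, 188 and 287 in skip2 induced and 184 to 206 in dN90 induced libraries. The ranges overlapped in each of the 3 comparisons of induced samples with their reference. The difference was -0.36 (SE 0.22, limma adjusted p = 0.307) in skip1, 0.51 (SE 0.31, adjusted p = 0.297) in skip2 and -0.24 (SE 0.27, adjusted p = 0.553) in dN90 samples. With libraries scaled to equal totals the skip1 and dN90 values changed sign, to 0.11 and 0.24, and the skip2 value became a call (1.11, adjusted p = 0.00720), as it did with quantile normalization (1.02, adjusted p = 0.0176).

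Pck1 converts oxaloacetate to phosphoenolpyruvate and is the step most used as a readout of the pathway. Its normalized counts were 1493 and 1173 in wild type liver, 2055, 1528 and 1304 with skip1 alone, and 1420 and 1014 with skip2 alone. They were 637, 1301, 432, 575 and 346 in skip1 induced replicates 1 to 5, 222 and 955 in skip2 induced, and 345, 373, 123 and 144 in dN90 induced libraries. All 5 skip1 induced libraries lay below the lowest skip1 alone library, replicate 2 by a narrow margin. The spread within the skip2 induced pair was wider than the distance between the skip2 means. The difference was -1.44 (SE 0.44, limma adjusted p = 0.0331) in skip1 and -2.59 (SE 0.53, adjusted p = 0.00114) in dN90 samples, folds of 0.369 and 0.166, and -1.38 (SE 0.61, adjusted p = 0.139) in skip2 samples. The skip1 call was lost when any skip1 alone library, or skip1 induced replicate 3, 4 or 5, was left out (-1.25 to -1.59, adjusted p 0.0597 to 0.116), and the skip2 value became a call without skip2 induced replicate 2 (-2.43, adjusted p = 0.0141).

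Fbp1 removes a phosphate from fructose-1,6-bisphosphate against the direction of glycolysis. Its normalized counts were 441 and 444 in wild type liver, 557, 671 and 575 with skip1 alone and 483 and 680 with skip2 alone. They were 328, 389, 168, 146 and 220 in skip1 induced replicates 1 to 5, 231 and 294 in skip2 induced and 190, 237, 186 and 184 in dN90 induced libraries. Every induced library was below every library without the induced condition, a pattern shared by Tat and by 5.37% of all genes tested. The difference was -1.36 (SE 0.26, limma adjusted p = 0.00137) in skip1, -1.13 (SE 0.35, adjusted p = 0.0342) in skip2 and -1.16 (SE 0.31, adjusted p = 0.00894) in dN90 samples. The skip2 call was lost when any 1 of the 4 skip2 libraries was left out (-0.89 to -1.38, adjusted p 0.0540 to 0.231) and with upper-quartile scaling (adjusted p = 0.0573), and the dN90 call was lost without either wild type library (adjusted p 0.0637 and 0.0648).

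G6pc, the enzyme that releases free glucose, fell in all 3 comparisons. Its normalized counts were 197 and 229 in wild type liver, 276, 275 and 483 with skip1 alone and 139 and 209 with skip2 alone. They were 54.9, 57.4, 143, 178 and 103 in skip1 induced replicates 1 to 5, 28.0 and 20.8 in skip2 induced and 14.2, 37.7, 7.53 and 25.8 in dN90 induced libraries. All skip2 and dN90 induced libraries were lower than every skip1 induced library, and skip1 induced libraries overlapped only with skip2 alone. By mean ± SD the order was skip1 alone (345 ± 120, n = 3), wild type (213 ± 22.2, n = 2), skip2 alone (174 ± 49.5, n = 2), skip1 induced (107 ± 53.6, n = 5), skip2 induced (24.4 ± 5.09, n = 2) and dN90 induced (21.3 ± 13.3, n = 4), and the skip2 and dN90 induced samples were not told apart by limma. Neither isoform alone was called against wild type, and skip2 alone and skip1 induced, whose ranges overlap, were not compared. The difference was -1.78 (SE 0.41, limma adjusted p = 0.00603) in skip1, -2.76 (SE 0.56, adjusted p = 0.00219) in skip2 and -3.48 (SE 0.49, adjusted p = 2.43e-05) in dN90 samples, folds of 0.292, 0.147 and 0.0898. The skip1 call was lost without skip1 alone replicate 3, the highest library (-1.51, adjusted p = 0.0501).

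Slc37a4, the transporter that carries glucose-6-phosphate to G6pc in the endoplasmic reticulum (chromosome 9, 44396852 to 44402968), was not called in these 3 comparisons. Normalized counts were 148 and 76.5 in wild type liver, 55.2 to 143 with skip1 alone, 141 and 170 with skip2 alone, 39.9 to 133 in skip1 induced, 74.0 and 111 in skip2 induced and 59.6 to 107 in dN90 induced libraries. The wild type pair differed by more than any group mean differed from wild type. The differences were -0.34 (SE 0.37), -0.77 (SE 0.51) and -0.28 (SE 0.44) in skip1, skip2 and dN90 samples, with limma adjusted p of 0.604, 0.346 and 0.690, and the skip1 and dN90 values changed sign with equal totals, to 0.13 and 0.20. At the exit of the pathway, G6pc thus fell in all 3 comparisons while Slc37a4 passed the test in none, a contrast between the genes that was not itself tested.

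Among the aminotransferases, Tat, which starts tyrosine breakdown and is a classic glucocorticoid-induced gene, fell in all 3 comparisons. Its normalized counts were 1116 and 902 in wild type liver, 1343, 1287 and 1088 with skip1 alone and 1023 and 838 with skip2 alone. They were 213, 618, 157, 218 and 183 in skip1 induced replicates 1 to 5, 204 and 387 in skip2 induced and 473, 406, 305 and 231 in dN90 induced libraries, so that the highest induced library was still below the lowest other library. The difference was -2.35 (SE 0.34, limma adjusted p = 0.000114) in skip1, -1.72 (SE 0.46, adjusted p = 0.0156) in skip2 and -1.55 (SE 0.40, adjusted p = 0.00768) in dN90 samples. The skip2 call was lost without either skip2 alone library or without skip2 induced replicate 1 (-1.25 to -1.86, adjusted p 0.0538 to 0.214), and the dN90 call without wild type replicate 1 (-1.40, adjusted p = 0.0856).

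Got1, the cytosolic aspartate aminotransferase (chromosome 19, 43499752 to 43524605), had normalized counts of 47.6 and 45.7 in wild type liver, 123, 212 and 58.6 with skip1 alone and 86.7 and 61.8 with skip2 alone. They were 28.0, 67.5, 34.4, 15.3 and 19.2 in skip1 induced replicates 1 to 5, 19.8 and 35.1 in skip2 induced and 67.6, 90.8, 46.4 and 14.9 in dN90 induced libraries. The skip1 alone libraries spanned a wide range and the dN90 induced libraries lay on both sides of wild type. Mean Got1 was 131 with skip1 alone and 46.6 in wild type liver, so the size of the skip1 fall depends on the skip1 alone libraries. The Got1 difference was -1.97 (SE 0.49, limma adjusted p = 0.00974) in skip1 induced samples, a call lost without skip1 alone replicate 2 (-1.54, adjusted p = 0.0779). Its value was -1.44 (SE 0.67, adjusted p = 0.163) in skip2 samples, which became a call in a fit of only these groups (SE 0.34, adjusted p = 0.0266). It was -0.03 (SE 0.58, adjusted p = 0.976) in dN90 samples, where the 95% interval ran from -1.24 to 1.18. Under the alternatives the dN90 value ran from -0.67 to 0.49.

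Gpt, the cytosolic alanine aminotransferase that turns alanine into pyruvate (chromosome 15, 76695716 to 76699686), had normalized counts of 215 and 196 in wild type liver, 232, 159 and 146 with skip1 alone and 149 and 183 with skip2 alone. They were 102, 150, 42.7, 61.4 and 102 in skip1 induced replicates 1 to 5, 83.7 and 116 in skip2 induced and 171, 123, 154 and 101 in dN90 induced libraries. Only skip1 induced replicate 2 reached into the range of skip1 alone. The Gpt difference was -1.06 (SE 0.30, limma adjusted p = 0.0220) in skip1 induced samples, and the call was lost without skip1 alone replicate 1 or skip1 induced replicate 3 or 4 (-0.82 to -0.94, adjusted p 0.0513 to 0.105) and in a fit of only these groups (adjusted p = 0.0522). Its values were -0.74 (SE 0.41, adjusted p = 0.251) in skip2 and -0.60 (SE 0.36, adjusted p = 0.240) in dN90 samples.

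Ppargc1a, the coactivator PGC-1α (chromosome 5, 51454250 to 51567726), was at 9.08 and 1.67 normalized counts in wild type liver and at 2.31 to 6.95 in the 5 libraries with an isoform alone. It was at 3.62 to 9.27 in skip1 induced, 7.76 and 17.7 in skip2 induced and 17.2, 15.3, 11.3 and 3.98 in dN90 induced libraries. The 4 highest libraries were dN90 induced replicates 1, 2 and 3 and skip2 induced replicate 2. With no filter on low values, the dN90 difference from wild type was 1.16 (SE 0.57, limma adjusted p = 0.196), and the gene was not called in any comparison.

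**Figure D2:**
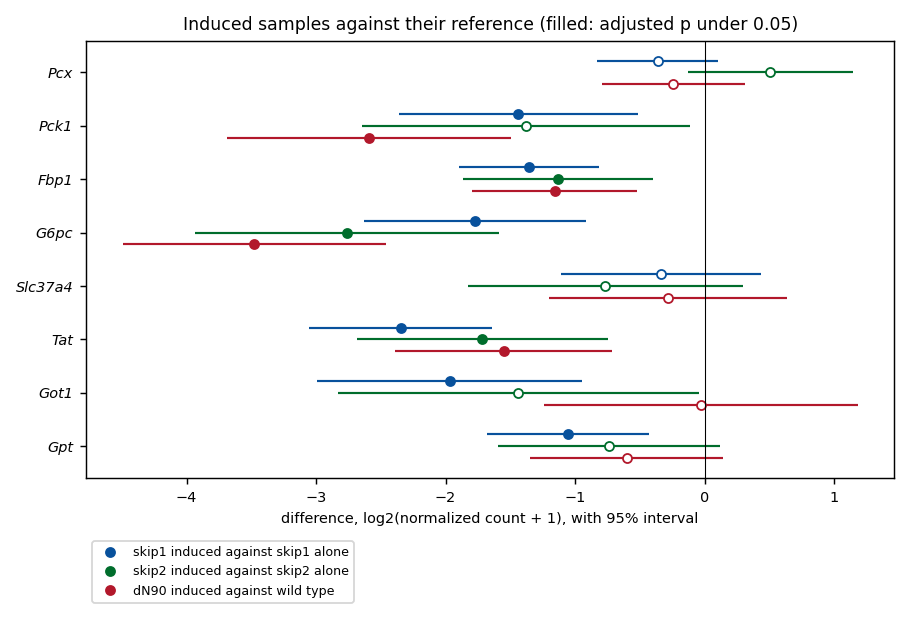
Difference of each tested gene on the log2(normalized count + 1) scale (horizontal axis) with its 95% interval, for the 3 comparisons of induced samples with their reference. Filled points were called by limma, and G6pc, Fbp1 and Tat are filled in all 3 comparisons, whereas Pcx and Slc37a4, whose skip1 and dN90 values change sign with equal totals, are filled in none.

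Non-overlap of libraries gave a similar picture for skip1 and a weaker contrast with the background for the smaller groups. In skip1 induced against skip1 alone, G6pc, Pck1, Fbp1 and Tat were lower without overlap, 4 of 8 genes against 10.7% of all genes. In skip2 induced against skip2 alone, 7 of 8 genes were lower without overlap, all but Pcx, but with 2 libraries against 2 so were 32.6% of all genes. In dN90 induced against wild type, 5 of 8 genes (G6pc, Pck1, Fbp1, Tat and Gpt) were lower without overlap, against 23.6% of all genes.

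Between the induced groups, G6pc was called in 2 of the 3 comparisons and Pck1 in 1. In skip1 induced against skip2 induced samples, 1 of the 8 genes was called, where 3.53% of all genes were called. G6pc was higher in skip1 induced samples by 1.95 (SE 0.47, limma adjusted p = 0.0241), a fold of 3.87, and its libraries did not overlap, as in 10.1% of all genes in this direction. That call was lost without skip1 induced replicate 5 (1.93, adjusted p = 0.0524), without skip2 induced replicate 1 or 2 (adjusted p 0.289 and 0.142) and with depth as a covariate (2.25, adjusted p = 0.357). Pck1 and Slc37a4 gave 0.36 (SE 0.51, adjusted p = 0.816) and -0.50 (SE 0.43, adjusted p = 0.668). Of the cell type markers, 1 of 10 hepatocyte markers was called, lower in skip1 induced samples.

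In skip1 induced against dN90 induced samples, 2 of the 8 genes were called, both higher with skip1, where 4.63% of all genes were called. G6pc was higher by 2.35 (SE 0.38, limma adjusted p = 0.000381), a fold of 5.09, and all 5 skip1 induced libraries exceeded all 4 dN90 induced ones, as in 3.85% of all genes. Pck1 was higher by 1.43 (SE 0.41, adjusted p = 0.0483), a fold of 2.69, with overlapping libraries. The Pck1 call was lost without dN90 induced replicate 3 or 4 or without skip1 induced replicate 1, 2 or 4 (1.14 to 1.44, adjusted p 0.0805 to 0.22). It was also lost with a pseudocount of 0.5 or depth as a covariate (adjusted p 0.0511 and 0.0612) and without skip1 induced replicates 1 and 2 together (1.01, adjusted p = 0.251). Gpt went the other way, at -0.68 (SE 0.28, adjusted p = 0.198), and was called without those 2 libraries (-1.05, adjusted p = 0.0283). Markers of several cell types also differed between these samples. Called higher in skip1 than in dN90 induced samples were 3 of 10 hepatocyte markers (Cyp3a11, Serpina1c and Ttr), 3 of 8 macrophage markers (Cd5l, Clec4f and Vsig4) and 3 of 7 endothelial markers (Cdh5, Clec4g and Kdr), and none was called lower. The hepatocyte markers did not go one way, since their median difference was -0.16 and 60% of them lay below 0. Summed normalized counts ran from 24187 to 64497 against 29295 to 38475 for hepatocyte markers, from 324 to 535 against 255 to 417 for macrophage markers, and from 332 to 402 against 212 to 335 for endothelial markers. Their part in the G6pc and Pck1 differences was not tested.

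In skip2 induced against dN90 induced samples none of the 8 genes was called by limma, where 3.03% of all genes were. G6pc differed by 0.40 (95% interval -0.62 to 1.41), Pck1 by 1.07 (-0.03 to 2.17) and Got1 by -0.77 (-1.98 to 0.44), so that differences of more than 1 log2 unit in these genes are within the intervals. None of the 8 had an unadjusted p under 0.05, which 12.9% of all genes had.

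The isoforms alone were set against wild type liver, which asks what they change without the induced condition. None of the 8 genes was called by limma with skip1 alone, where 0% of all genes were called, or with skip2 alone, where 0.0152% were called. At an unadjusted p under 0.05 there were 272 genes (4.13%) with skip1 and 330 genes (5.01%) with skip2. Got1 was the only one of the 8 among the 272 and none was among the 330. Got1 was higher by 1.29 (SE 0.61, limma adjusted p = 1.00) with skip1 alone and by 0.64 (SE 0.67, adjusted p = 0.967) with skip2 alone. Pcx gave -0.49 (SE 0.31, adjusted p = 0.967) with skip2 and Slc37a4 -0.39 (SE 0.47, adjusted p = 1.00) with skip1. The difference between the skip1 and the skip2 response to the induced condition was called for none of the 8 genes, where 0.167% of all genes were called, and 1 of the 8, Pcx, had an unadjusted p under 0.05, as did 10% of all genes (-0.87, SE 0.38, adjusted p = 0.442). For G6pc that difference was 0.99 (SE 0.70, adjusted p = 0.71, 95% interval -0.46 to 2.44).

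Of the 5 skip1 induced libraries, replicates 1 and 2 differed from the other 3 in opposite directions for G6pc and for Pck1, Fbp1 and Slc37a4. Replicates 1 and 2, the libraries that stood apart toward the uninduced side, had the lowest G6pc, at -2.58 and -2.51 on the log2 scale from the mean of skip1 alone, against -0.90 to -1.68 in the other 3. They had the highest Pck1 (-1.33 and -0.30 against -1.48 to -2.21), the highest Fbp1 (-0.87 and -0.62 against -1.44 to -2.03) and the highest Slc37a4 (0.27 and 0.71 against -0.68 to -1.0). The median of 10 hepatocyte markers was also highest in these 2 libraries, at -1.04 and -0.58, against -1.27 to -2.08. For Tat, replicate 2 alone stood above the others (-1.0 against -2.50 to -2.97), and replicate 1 had the highest Ctnnb1, at 1266 normalized counts against 580 to 768. Without both libraries all 6 calls against skip1 alone remained, with G6pc at -1.26 (limma adjusted p = 0.0354) and Fbp1 at -1.77 (adjusted p = 1.44e-05). Among replicates 3, 4 and 5, G6pc and Pck1 had the same order. The opposite direction thus rests on 2 libraries and was noticed after the values were seen, so it has no test.

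**Figure D3:**
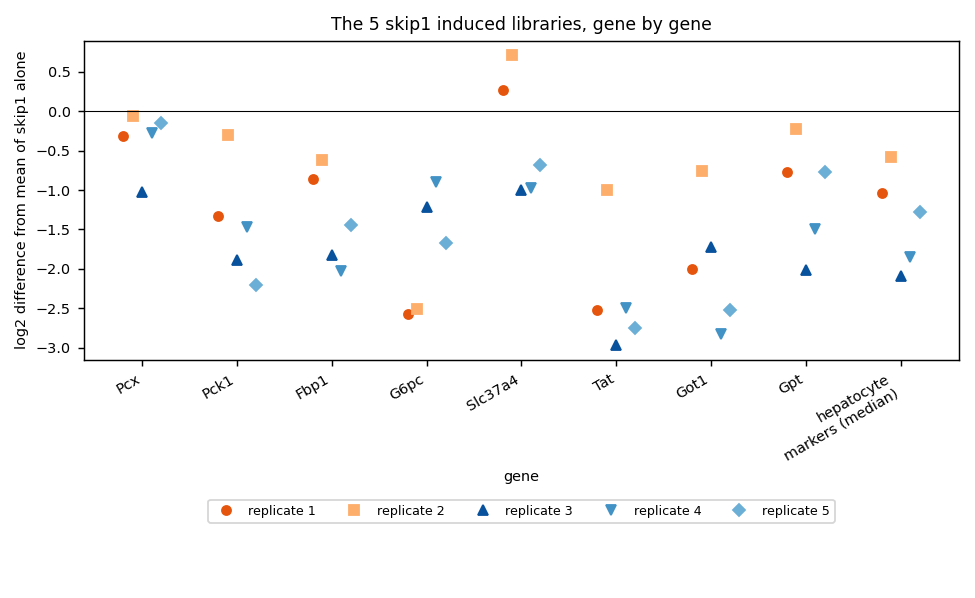
Log2 difference of each skip1 induced library from the mean of skip1 alone (vertical axis) for the 8 tested genes and for the median of 10 hepatocyte markers. Replicates 1 and 2 are lowest for G6pc (-2.58 and -2.51) and highest for Pck1, Fbp1 and Slc37a4.

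Across the 18 libraries, G6pc was most like Cmtm6, Hsd3b7 and Slc30a10 (Pearson r of 0.92 each, of 6591 genes compared), and 9 genes had an r above 0.9 with it. Hsd3b7 is an enzyme of bile acid synthesis and Slc30a10 a manganese exporter. Pck1 was most like Ces1f, Ugt2a3 and Uroc1 (r of 0.94, 0.94 and 0.93), a carboxylesterase, a glucuronosyltransferase and the urocanase of histidine breakdown, and 29 genes had an r above 0.9 with it. Within the pathway, G6pc correlated with Pck1 at 0.75, with Fbp1 at 0.64 and with Tat at 0.54, and with Pcx and Slc37a4 at -0.04 and -0.08. Pck1 correlated with Fbp1 at 0.82 and with Tat at 0.78. The libraries share their groups, so these values describe group differences and library differences together.

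The other genes of the pathway were read from lists of related genes. Among the remaining gluconeogenic and reversible enzymes, 8 of 13 tested were lower in skip1 induced samples, 3 lower and 1 higher in skip2 and 4 lower in dN90, shares called of 61.5%, 30.8% and 30.8% beside 14.7%, 14.9% and 22.7% of all genes. None was called between the induced groups. Mdh1, the cytosolic malate dehydrogenase, fell in all 3 comparisons, with differences of -1.35 (SE 0.23, limma adjusted p = 0.000523) in skip1, -1.40 (SE 0.31) in skip2 and -1.85 (SE 0.27) in dN90 samples. Pgam1, phosphoglycerate mutase, fell too (-0.94, -0.98 and -1.35 in the same order).

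Genes that supply precursors or export glucose were called lower for 10 of 19 in skip1, 6 in skip2 and 8 in dN90 samples, where 8.18%, 8.42% and 12% of all genes were called lower. In each comparison 1 was called higher. Hal, which opens histidine breakdown, had the largest differences in this list. Its normalized count went from 363 ± 60.2 to 37.5 ± 21.2 in skip1, from 192 ± 33.1 to 24.2 ± 18 in skip2, and from 259 ± 46.9 in wild type to 4.38 ± 2.86 in dN90 samples. Gls2, the liver glutaminase, fell in the same 3 comparisons (-2.60, -2.69 and -2.74). Gldc of glycine cleavage fell by 2.69 in skip1 samples, and Gpd1, which handles glycerol phosphate, fell by 1.26 in dN90 samples. Hal was also higher in skip1 than in dN90 induced samples, by 2.76 (SE 0.42, limma adjusted p = 0.000188), and in skip2 than in dN90, by 2.17 (SE 0.54, adjusted p = 0.0318).

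Few regulators were called. Of 23 tested, 3 were called in skip1 (2 higher, 1 lower), 1 in skip2 (higher) and 3 in dN90 samples (1 higher, 2 lower), shares of 13%, 4.35% and 13%, not above the 14.7%, 14.9% and 22.7% of all genes. Sirt1, a deacetylase, rose by 1.44 in skip1 samples, from 6.29 ± 0.44 to 18.8 ± 1.97 normalized counts. Its mean went down in skip2, from 13.9 alone to 8.60 induced, and was 9.94 in wild type and 16.3 in dN90 induced samples. Irs1, an insulin receptor substrate, rose by 1.53 in skip2 and 1.25 in dN90 samples. Creb3l3, a liver transcription factor of fasting, fell in skip1 and dN90 samples (-0.80 and -1.28), and Gcgr, the glucagon receptor, fell by 0.99 in dN90 samples.

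Of 11 fasting and glucocorticoid responsive genes, 3 were lower in skip1, 2 lower in skip2, and 2 lower and 2 higher in dN90 samples. The shares called were 27.3%, 18.2% and 36.4%, beside 14.7%, 14.9% and 22.7% of all genes, so that the skip2 share was close to that of all genes. Tdo2, tryptophan dioxygenase, fell in all 3 (-1.33, -2.03 and -1.75 in the same order). Igfbp1 rose by 4.53 (SE 0.74, limma adjusted p = 0.000128) in dN90 samples, from 0.831 ± 1.18 to 37.4 ± 8.04 normalized counts. Igfbp1 was at 8.16 ± 2.90 with skip1 alone and 9.79 ± 4.14 with skip2 alone, so the size of this rise depends on the wild type pair. Fkbp5, a glucocorticoid receptor target, rose by 1.42 (SE 0.46) in dN90 samples. Both genes called higher are known to be induced by fasting or glucocorticoids. Sds, serine dehydratase, fell by 4.69 in dN90 samples, from 30.1 ± 12 to 0.197 ± 0.393, and it was lower there than in skip1 induced samples, where it was 8.03 ± 3.38.

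Of 11 opposing glycolytic enzymes none was called lower in these 3 comparisons, and 1, 2 and 2 were called higher in skip1, skip2 and dN90 samples. These shares of 9.09%, 18.2% and 18.2% were not far from the 14.7%, 14.9% and 22.7% of all genes called. Pkm, the pyruvate kinase of non-hepatocyte and growing cells, rose by 1.15, 1.18 and 1.07. Of 9 glycogen genes, 22.2%, 22.2% and 33.3% were called in the same order. Pygl, the liver glycogen phosphorylase, fell in all 3 comparisons (-1.07, -1.44 and -1.52). Ppp1r3c, a glycogen targeting subunit, fell by 3.63 in dN90 samples, from 57.7 ± 33.6 in wild type to 4.15 ± 3.56 normalized counts. It was at 27.9 ± 31.3 with skip1 alone and 8.17 ± 0.10 with skip2 alone, so the size of this fall depends on the wild type pair.

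**Figure D4:**
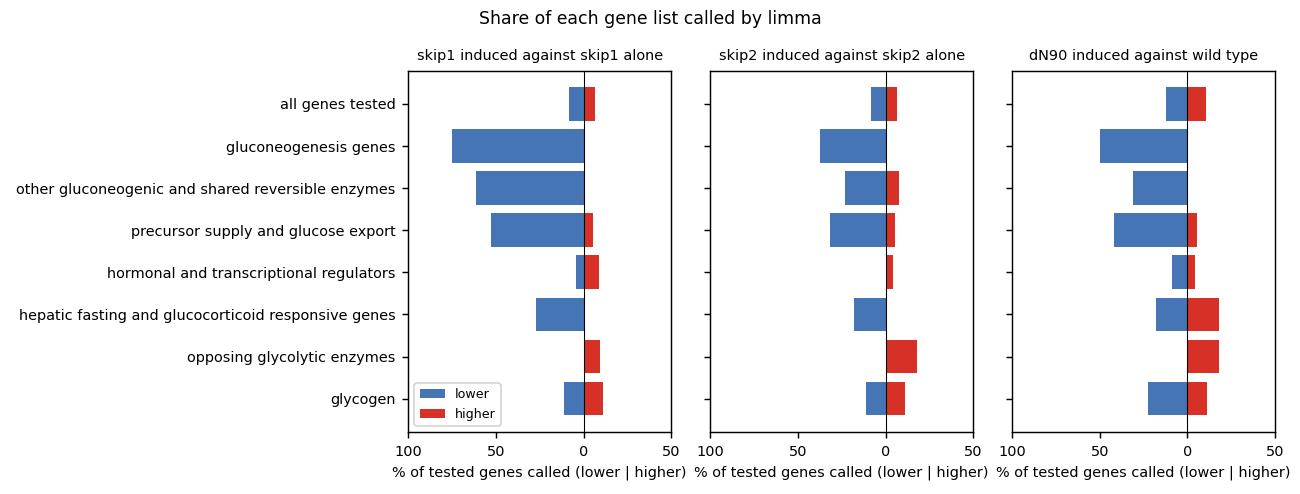
Share of each gene list called by limma (horizontal axis, lower to the left and higher to the right, in % of genes tested) for the 3 comparisons of induced samples with their reference. The gluconeogenesis genes reach 75%, 37.5% and 50%, all lower, beside 14.7%, 14.9% and 22.7% of all genes in either direction. The share was larger among genes with a mean of at least 50.

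The subtype samples were measured apart, as z-scores that count a difference in SDs of each gene and give no fold. The 16 libraries of this block were not centred on 0 over themselves (gene means up to 0.241 in size, median SD 1.03), so a z-score of 0 is not their mean. The authors' name for this selection is DEgenes, with skip1, skip2 and both subtypes named. Its genes were thus probably chosen for differing in these samples. The p-values below, against control and between subtypes, therefore give no independent support for a change. All 4 genes present were called lower in subtype A than in the sgActin and YAPS127A control, where 97.3% of genes in this selected table were called and 55.6% were called lower. All 4 were also called lower in subtype B, where 99.6% were called and again 55.6% lower. G6pc was 2.04, 1.69 and 2.15 in the control libraries, -0.17 to -0.02 in the 4 subtype A libraries and between -0.94 and 0.09 (median -0.54) in the 9 subtype B libraries. The difference from control was -2.03 (SE 0.21) in subtype A and -2.46 (SE 0.19) in subtype B, with limma adjusted p of 1.36e-07 and 1.54e-09. For Pck1, Fbp1 and Tat the differences were -2.25, -2.30 and -2.34 in subtype A and -2.51, -2.62 and -2.49 in subtype B. The median over all genes in the table was -2.0 and -2.46, and Alb, the albumin gene, moved from 2.04 ± 0.54 (SD, n = 3) to -0.26 ± 0.15 (n = 4) and -0.50 ± 0.08 (n = 9).

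Between the subtypes, 2 of the 4 genes were called, both higher in subtype A, where 61.1% of genes in the table were called and 40.3% were called higher. Fbp1 was -0.01, -0.37, -0.28 and -0.27 in subtype A and between -0.71 and -0.41 (median -0.56) in subtype B, with no overlap, as in 34.8% of the table, and a difference of 0.32 (SE 0.08, limma adjusted p = 0.00319). G6pc differed by 0.43 (SE 0.17, adjusted p = 0.0391), but subtype B replicates 3 and 4, at 0.09 and 0.02, exceeded all subtype A libraries. The G6pc call was lost when any 1 of the 4 subtype A libraries, or subtype B replicate 2, 5, 6, 7 or 8, was left out (0.37 to 0.46, adjusted p 0.0537 to 0.0923) and with a trended prior (adjusted p = 0.0524). Pck1, without overlap, and Tat gave 0.26 (SE 0.17, adjusted p = 0.20) and 0.15 (SE 0.17, adjusted p = 0.436), and both were called when the control was left out of the fit (adjusted p 0.00170 and 0.0186). The median over all genes in the table was 0.19. Of the markers in the table, 3 of 6 for hepatocytes and 3 of 3 for endothelium were called higher in subtype A and 2 of 5 for cholangiocytes lower, and their part in these differences was not tested.

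**Figure D5:**
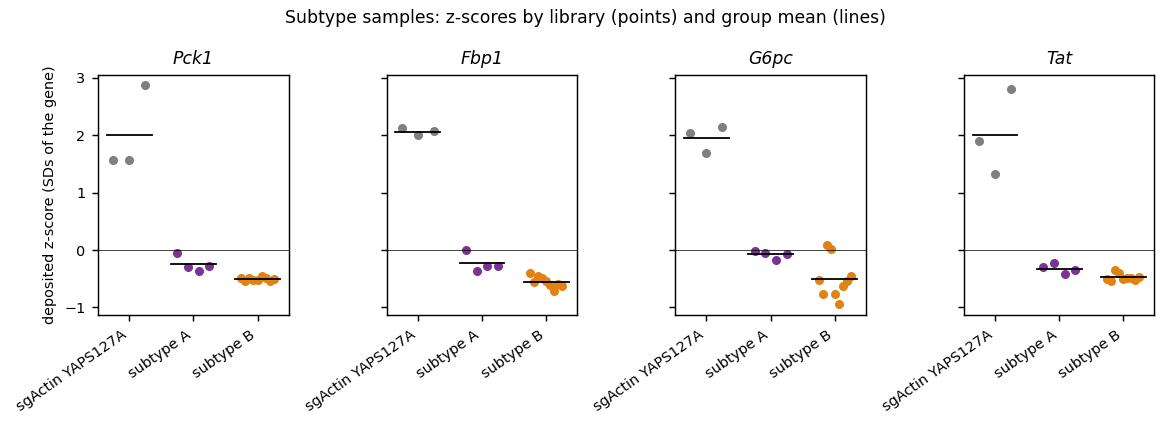
Deposited z-scores (vertical axis, in SDs of the gene) of the 4 genes present in the subtype table, by library (points) and group mean (lines). All control libraries lie at 1.33 or above and all subtype libraries at 0.09 or below, and subtype A lies above subtype B without overlap for Fbp1 and Pck1.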

How the data were processed

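Per the submitters' processing notes, reads were handled with the mm10 build and FastQC, STAR, RSEM and DESeq2, whose versions and settings are not given in the sources used here. The deposited normalized counts (signal per gene, 14086 genes, 18 libraries) were made by the authors. In each library 58.9% to 60.5% of the nonzero values were multiples of a common step (tolerance 0.001). Too few were whole for a count model, so estimated reads are the column sum over that step. The second deposited table holds a score: a z-score per gene for 1659 genes that the authors selected, in which 16 libraries (subtypes and control) were scaled apart from the other 18. The 18 have gene means of 0 and SDs of 1, while the 16 do not, so their scaling was not done over these 16 columns alone. These blocks were not compared. Their depth is unknown.

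Genes with a mean normalized count of at least 10 (6592) were tested as log2(value + 1) in limma 3.58.1 (R 4.3.3). Each group had 1 coefficient, the prior followed the mean, and two-sided p-values were adjusted by Benjamini-Hochberg. The z-scores were tested with limma without a trend. Members and lists were chosen with earlier results of these data known. All members were described, and from each related list up to 4 called genes per comparison with the largest difference were eligible to be named, preferring those whose higher group averaged 100 or more, or at any mean where fewer than 2 did. The text names part of these. Alternatives were other pseudocounts, filters, scalings, weights, a fit on the compared groups and leaving out each library. Equal totals, depth as a covariate and leaving out skip1 induced libraries 1 and 2 together were added after the data were seen. The test was checked on simulated data. Gene coordinates are from GENCODE on mm10.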

Additional observations from a re-analysis of the deposited data

Results flagged for a closer look

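Of 26 sets of a gene and a group examined for a library far from the others, 2 held one, and some would do so by chance, at a rate not measured here. Fbp1 was 236.7 normalized counts in dN90 induced replicate 2, the highest of 4 libraries, against 184 to 190 in the other 3. Tat was 617.9 in skip1 induced replicate 2, the highest of 5 libraries, against 157 to 218 in the other 4.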

How the results depend on the processing

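The 26 calls of a gluconeogenesis gene kept their direction under all 414 alternatives run on them, and 356 of these kept the call. Of the 58 losses, 18 came from leaving out 1 library of a group of 2 or 3, 6 of a group of 4 and 14 of a larger group, 11 from another scaling and 5 from depth as a covariate and 4 from other alternatives, and their cause was not tested beyond that. Of uncalled values, Got1 in dN90 against wild type changed sign with a pseudocount of 5 (0.000609), upper-quartile scaling (0.0748), quantile normalization (0.0523), array weights (0.00252), equal totals (0.44) and depth as a covariate (0.19), and ran from -0.354 to 0.489 with 1 replicate left out, being above 0 without dN90 induced replicate 4. Pcx changed sign with quantile normalization in skip1 and dN90 (0.00876 and 0.0168) and with equal totals (0.11 and 0.24), and in dN90 ran from -0.558 to 0.0739 with 1 replicate left out, being above 0 without wild type replicate 2. Slc37a4 did so with equal totals (0.13 in skip1, 0.20 in dN90), and with 1 replicate left out ran from -0.61 to 0.0692 in skip1 (above 0 without skip1 alone replicate 1), from -0.756 to 0.191 in dN90 and from -0.865 to 0.0826 in skip1 alone against wild type (both above 0 without wild type replicate 1). Pck1 in skip1 against skip2 induced ran from -0.69 (without skip2 induced replicate 1) to 1.41, and was -0.0606 without skip1 induced replicates 1 and 2 together.

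Counts of all genes called moved as follows, with the cause not tested unless fewer genes or samples entered. A mean of at least 50, which 1679 genes reached, gave 545 in skip1, 526 in skip2, 656 in dN90 against their reference and 0 in skip2 alone against wild type. Equal totals gave 1835 and 1700 in skip1 and skip2. Depth as a covariate gave 757 genes and 2 members in dN90 against wild type, 13 genes and 0 members in skip1 against skip2 induced, 1 member in skip1 against dN90 induced and 0 genes in skip2 against dN90 induced. The mean of all groups without the induced condition as reference gave 2471 genes for dN90, and a pseudocount of 0.5 gave 1 member in skip1 against dN90. Array weights gave 400 in skip1 against skip2 induced, and a fit of only the groups compared gave 7 in skip2 against dN90 induced. Skip2 alone against wild type, 1 gene, became 4 with a pseudocount of 5, 2 with no filter or array weights and 8 with only its groups. The difference between the skip1 and skip2 responses, 11 genes, became 21 with a pseudocount of 5, 17 with quantile normalization, 24 with array weights and 20 with only its groups. For subtype A against B, 4 members were called with only these groups and 1 with a trended prior.

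Leaving out each replicate in turn gave 580 to 1223 genes in skip1 against skip1 alone, 346 to 784 genes and 1 to 3 members in skip2, 871 to 1497 genes and 2 to 4 members in dN90 against wild type, 10 to 343 genes and 0 to 1 members in skip1 against skip2 induced, 199 to 338 genes and 1 to 2 members in skip1 against dN90, and 7 to 309 genes in skip2 against dN90. It gave 0 to 1 genes for each isoform alone, 4 to 150 for the difference between responses, and 1 to 2 members in subtype A against B. Where 1 library was left in a group, it was assumed to vary like the other groups. No paired analysis was possible because the numbers follow accession order and tie no library to another. Depth limits low genes such as Ppargc1a.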
